A study of Mus musculus with 24 samples.

Results

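Annexins are a family of calcium-dependent phospholipid-binding proteins, and 10 annexin genes were measured in mouse mammary glands of non-lactating mice and on 3 lactation days. The members, Anxa1 to Anxa9 and Anxa11, were taken by symbol from the 32544 genes of the table, and all 10 passed the filter on low values. Polyadenylated RNA of inguinal glands was sequenced in 8 groups of 3 mice each, 24 samples in all. The genotypes were BL/6 NZB and BL/6 C57, called NZB and C57 here. The labels give only these names, which are used for BL/6 strains that carry the mitochondrial DNA of NZB or of C57 mice. Each genotype has a non-lactating group and groups at days 8, 14 and 21 of lactation, and all groups share the BL/6 background. The titles say only that the first group was non-lactating, and the words before lactation stand for that group below. Rises and falls between stages are differences between separate groups of mice. No age, litter size or weaning date is among the labels used here, and a whole gland mixes epithelium, fat, stroma, vessels and immune cells.

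An annexin binds membranes that expose acidic phospholipids when calcium rises, through a core of repeats, and its variable N terminus binds partner proteins. Anxa2 pairs with S100a10 and can hold plasminogen and its activator at the cell surface, Anxa1 is a glucocorticoid-regulated protein that signals through formyl peptide receptors and pairs with S100a11, and Anxa5 binds phosphatidylserine on dying cells. In the mammary gland, milk-secreting epithelium is shed and cleared after weaning, a process in which phosphatidylserine-marked cells are taken up by their neighbours.

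Levels are given on 2 scales. On the deposited scale a level is in counts per 1000000 reads (CPM) over all genes. The milk-removed scale drops 20 milk protein genes and rescales what remains to 1000000 reads, and it is the scale used unless the deposited one is named. Milk protein genes held 72.2 to 75.2% of reads in NZB and 71.2 to 75.9% in C57 glands on day 8, and 68.1 to 74.7% in NZB and 64.8 to 76.4% in C57 glands on day 14. On day 21 they held 18.5 to 30.8% in NZB glands, against 62.0 to 76.2% in C57 glands. In non-lactating glands the share was at most 2.01% in NZB and 0.521% in C57. Depth was 14.81 to 24.25 M reads (M, 1000000) in lactating glands and 7.03 to 15.88 M reads in non-lactating glands. Epithelial markers (Epcam, Krt8, Krt18, Krt19 and Cdh1) were detected in every group. B cell markers summed to 475.9 and 1059 CPM in non-lactating NZB mice 2 and 3 and to at most 106.2 CPM in every other gland. The labels of non-lactating C57 mouse 3 conflict, with an NZB genotype tag under a C57 title. This gland was kept as C57, and its deposited level of Gm29216 was 3591 CPM, against at least 267.9 CPM in the other C57 glands and 0 in every NZB gland.

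The members with the widest range of group means were Anxa8 (5.54 on the log2 scale), Anxa1 (4.70) and Anxa2 (4.03). Anxa8 lies at chr14:34085981-34100571 on the plus strand, Anxa1 at chr19:20373428-20390944 on the minus strand and Anxa2 at chr9:69453620-69491795 on the plus strand (GRCm38, GENCODE release for that build). The 250 bases before the RefSeq start of each (GRCm38.p6) are printed because these genes had the widest range of group means. The RefSeq and GENCODE starts differ. By GENCODE the Anxa1 window lies wholly within the gene, as does the end of the Anxa2 window with its TATAAA. The windows span chr14:34085729-34085978 for Anxa8, chr19:20390672-20390921 for Anxa1 and chr9:69453433-69453682 for Anxa2, read 5′ to 3′ along the gene's strand, with motif matches in capitals.
Anxa8: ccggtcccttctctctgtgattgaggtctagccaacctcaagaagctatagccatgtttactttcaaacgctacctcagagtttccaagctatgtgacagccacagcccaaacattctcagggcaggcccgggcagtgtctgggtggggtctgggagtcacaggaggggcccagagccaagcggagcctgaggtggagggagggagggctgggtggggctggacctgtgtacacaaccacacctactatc
Anxa1: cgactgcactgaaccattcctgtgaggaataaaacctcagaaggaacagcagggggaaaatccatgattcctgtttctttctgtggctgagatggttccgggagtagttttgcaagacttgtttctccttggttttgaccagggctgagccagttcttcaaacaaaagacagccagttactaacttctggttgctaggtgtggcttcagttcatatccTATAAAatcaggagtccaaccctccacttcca
Anxa2: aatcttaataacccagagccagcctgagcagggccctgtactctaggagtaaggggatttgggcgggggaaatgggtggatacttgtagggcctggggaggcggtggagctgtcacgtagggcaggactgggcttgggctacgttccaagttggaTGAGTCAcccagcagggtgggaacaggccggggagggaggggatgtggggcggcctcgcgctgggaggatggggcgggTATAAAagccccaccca
Both strands were searched for a STAT site, spelled TTCNNNGAA, and for an AP-1 site, spelled TGANTCA. They were also searched for the letters of a TATA box, TATAAA, and for the letters CCAAT, and the matches found do not overlap. In the Anxa2 window TGAGTCA, an AP-1 match, stood 95 to 89 bases before the start and TATAAA 17 to 12 bases before it. In the Anxa1 window TATAAA stood 32 to 27 bases before the start, and the Anxa8 window held none of the 4. These letters occur in 7.02% (STAT), 6.75% (AP-1), 12.4% (TATAAA) and 33.9% (CCAAT) of 32851 RefSeq promoter windows of this length. Promoter windows were matched for 8 of the 10 members, and no other member's window held a match.

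Per kilobase of exon, so that genes can be set beside each other, Anxa6 was the most abundant annexin in 7 of the 8 groups. The length merges the exons of all annotated transcripts of a gene, and may exceed that of the transcripts made. It was 2.93 kb for Anxa6, 1.78 for Anxa5, 2.91 for Anxa1 and 3.73 for Anxa2. The order of members depends on these lengths, and no other length was tried. Anxa6 (chr11:54979108-55033445, minus strand) codes for an annexin of doubled length. It averaged 90.0 ± 11.8 CPM per kb (SD, n = 3) in non-lactating NZB and 99.9 ± 13.2 in non-lactating C57 glands on the milk-removed scale. On day 14 it averaged 54.8 ± 5.68 in NZB and 45.1 ± 5.74 in C57 glands. Anxa5 (chr3:36448923-36475894, minus strand) came second in non-lactating glands, at 64.1 ± 25.8 CPM per kb in NZB and 84.6 ± 17.2 in C57, and its spread overlapped that of Anxa6 in both genotypes. Anxa8 was last in non-lactating glands, at 1.42 ± 0.756 CPM per kb in NZB and 1.53 ± 0.705 in C57.

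In NZB glands on day 21 the order differed. Anxa1 was first at 114 ± 37.6 CPM per kb, followed by Anxa8 at 88.6 ± 28.3, Anxa5 at 71.4 ± 10.4 and Anxa6 at 53.4 ± 13.9, and the SD ranges of neighbours in that order overlapped. Anxa2 was next at 24.8 ± 1.44 CPM per kb, below the SD range of Anxa6. Anxa9 was last in that group at 1.07 ± 0.603 CPM per kb. In the day 21 C57 glands Anxa6 led at 45.3 ± 8.07 CPM per kb, with Anxa8 at 21.8 ± 12.9, Anxa5 at 19.2 ± 3.60 and Anxa1 at 6.56 ± 5.37. The other annexins of the table, Anxa10 and Anxa13, had at most 1 read in any gland. A count of 0 allows up to 3 reads, or 0.124 to 0.427 deposited CPM depending on the gland's depth, for counting error only.

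**Figure D1:**
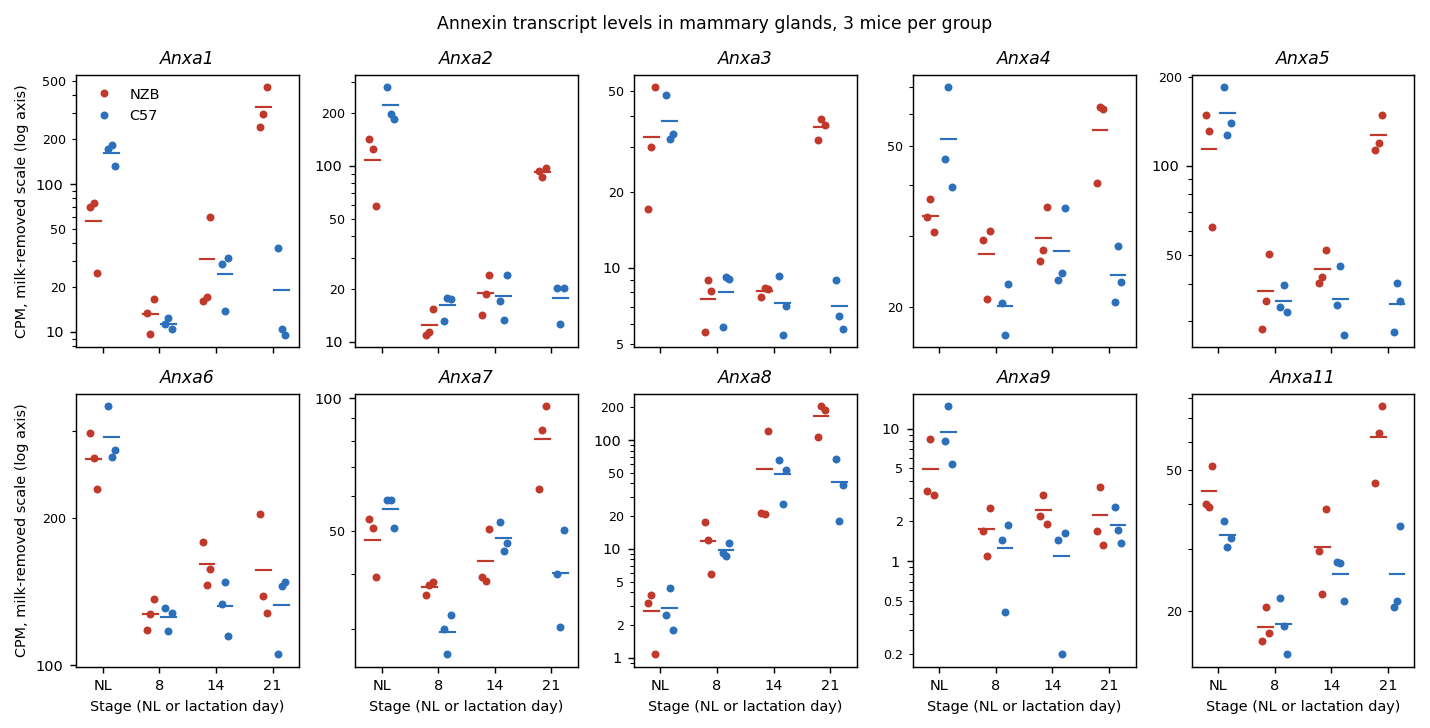
Level of each annexin in CPM on the milk-removed scale (log axis) by stage, NL for non-lactating and 8, 14 and 21 for the lactation day. Each point is 1 mouse, NZB in red left of C57 in blue, and the bar is the mean of 3 mice. Anxa8 is lowest before lactation in both genotypes, and on day 21 the NZB points of Anxa1, Anxa2, Anxa3 and Anxa5 stand far above the C57 points.

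Anxa8 was higher in lactating than in non-lactating glands in both genotypes, and higher on day 14 than on day 8. Each stage is a separate group of 3 mice. On the milk-removed scale the NZB groups had 3.15, 3.79 and 1.07 CPM before lactation, 17.5, 12 and 5.83 on day 8, 21.2, 21.1 and 120 on day 14, and 106, 204 and 190 on day 21. The C57 groups had 2.49, 4.36 and 1.80 CPM before lactation, 9.10, 8.59 and 11.3 on day 8, 66.1, 26.1 and 53.0 on day 14, and 66.3, 17.8 and 38.8 on day 21. In both genotypes every day 8 gland was above every non-lactating gland and every day 14 gland above every day 8 gland, a step that was not tested. The fitted log2 difference from non-lactating glands (limma on log2(CPM + 1), Benjamini-Hochberg adjustment over all genes) was 3.50 (SE 0.688, adjusted p = 0.00037) on day 14 and 5.54 (SE 0.694, adjusted p = 3.8e-06) on day 21 in NZB. In C57 it was 3.62 (SE 0.548, adjusted p = 1.1e-05) on day 14 and 3.30 (SE 0.586, adjusted p = 8.4e-05) on day 21.

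The day 8 difference of Anxa8 was smaller and rested on few reads. It was 1.77 (SE 0.678, adjusted p = 0.042) in NZB and 1.50 (SE 0.498, adjusted p = 0.015) in C57 by limma. The NZB call was lost without any of the 3 non-lactating mice (values 1.90, 2.01 and 1.40) or day 8 mouse 1 or 2 (1.45 and 1.70), and the C57 call without non-lactating mouse 1 or 3 (1.45 and 1.29). Both were also lost by limma voom (adjusted p = 0.28 in NZB and 0.082 in C57) and with no filter on low values. In deposited CPM Anxa8 had 4.39, 3.34 and 1.44 in day 8 NZB glands, against 3.09, 3.75 and 1.06 in non-lactating NZB glands, and 2.62, 2.10 and 2.71 in day 8 C57 glands, against 2.47, 4.34 and 1.79 in non-lactating C57 glands. Those groups overlapped, and neither day 8 difference passed on that scale.

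Anxa2 and Anxa1 fell in both genotypes by day 8. Anxa2 had 10.96, 11.3 and 15.2 CPM in day 8 NZB glands, against 141, 124 and 58.7 CPM in non-lactating NZB glands. It had 13.1, 17.6 and 17.6 CPM in day 8 C57 glands, against 280, 198 and 184 CPM in non-lactating C57 glands. The groups did not overlap, and Anxa2 fell by 2.93 (SE 0.318, adjusted p = 2e-07) in NZB and by 3.69 (SE 0.233, adjusted p = 1.5e-11) in C57 on the log2 scale (limma).

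Anxa1 had 13.4, 9.66 and 16.7 CPM in day 8 NZB glands, against 69.9, 74.5 and 25.2 CPM in non-lactating NZB glands. Day 8 C57 glands had 11.3, 12.5 and 10.4 CPM, against 173, 182 and 132 CPM in non-lactating C57 glands. Every day 8 gland was below every non-lactating gland of its genotype. The limma difference was −1.90 (SE 0.556, adjusted p = 0.009) in NZB, where the call was lost without non-lactating mouse 2 (−1.63, adjusted p = 0.2), and −3.71 (SE 0.408, adjusted p = 7.9e-08) in C57. The difference between genotypes in the day 8 step passed for 0 of the 10 members (limma, with 2 at an unadjusted p under 0.05 and 0 by limma voom), against 0.762% of all genes in either direction.

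Before day 21 the only member called higher in lactating glands was Anxa8, while 4 to 9 of the other 9 members were called lower. In NZB on day 8 the test called 6 members lower and 1 higher on the milk-removed scale, where 26.6% of all genes were lower and 12.7% higher, and on day 14 it called 4 lower and 1 higher (23.4% and 12.8% of all genes). Leaving out non-lactating NZB mouse 2 left 4 calls on day 8 and 3 on day 14. In C57 on day 8 it called 9 lower and 1 higher (36.4% and 14.9% of all genes). On day 14 in C57 it called 7 lower and 1 higher (26.1% and 14.9%), and on day 21 it called 8 lower and 1 higher (25.0% and 13.7%). The median difference of the 10 members was −1.13 in NZB and −1.68 in C57 on day 8, against −0.31 in NZB and −0.32 in C57 over all genes tested. With size factors from medians of ratios all genes split on day 8 into 2982 higher and 3271 lower in NZB, against 2050 and 4290 on the milk-removed scale, and into 3856 higher and 4470 lower in C57, against 2407 and 5877. Without both non-lactating NZB mice that were rich in B cell markers, leaving 1 mouse assumed to vary like the other groups, the calls lost against non-lactating NZB glands were those of Anxa8 on day 8 (1.51, adjusted p = 0.13, limma) and Anxa7 on day 21 (0.58, adjusted p = 0.091, limma), and, in deposited CPM, Anxa8 on day 14 (1.53) and Anxa9 on day 21 (−0.75).

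Anxa3 (chr5:96793339-96845966, plus strand) and Anxa5 fell on days 8 and 14 in both genotypes. Anxa3 had 5.57, 8.96 and 8.07 CPM in day 8 NZB glands, against 17.1, 30.1 and 51.9 CPM in non-lactating NZB glands, and 5.87, 9.20 and 9.01 CPM in day 8 C57 glands, against 48.4, 32.3 and 33.7 CPM in non-lactating C57 glands. Anxa5 had 28.1, 34.8 and 50.4 CPM in day 8 NZB glands, against 148, 132 and 61.9 CPM in non-lactating NZB glands. In C57 it had 33.4, 39.5 and 32.0 CPM on day 8, against 185, 127 and 139 CPM before lactation. Neither gene's day 8 glands reached the level of any non-lactating gland of their genotype. The Anxa5 call on day 14 in NZB was lost without non-lactating mouse 2 (−1.09, adjusted p = 0.12, limma).

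Anxa6 fell by 1.04 (SE 0.211, adjusted p = 0.00043) in NZB and by 1.21 (SE 0.155, adjusted p = 7.2e-07) in C57 on day 8 on the log2 scale (limma). Its day 8 glands had 118 to 137 CPM in NZB, against 229 to 298 CPM in non-lactating NZB glands, and 118 to 131 CPM in C57, against 266 to 337 CPM in non-lactating C57 glands. Anxa9 (chr3:95296096-95307176, minus strand), an unusual annexin whose calcium-binding residues are altered, was scarce throughout, at 0.409 to 1.88 CPM in day 8 C57 glands, against 5.44 to 14.7 CPM in non-lactating C57 glands, and it rested on 1 to 116 reads per gland. It fell by 2.17 (SE 0.36, adjusted p = 2.3e-05, limma) in C57. In NZB its day 8 glands had 1.09 to 2.50 CPM, against 3.17 to 8.32 CPM in non-lactating NZB glands, with no call by limma (adjusted p = 0.097). Among lactating glands Anxa9 exceeded 1 deposited CPM only in NZB on day 21, and it reached at most 0.969 in C57. It thus passed the filter mainly through non-lactating glands, and its lower calls, also within the counts of members, are not independent of that filter. Genes on the opposite strand share 71 exon bases with Anxa9, 75 with Anxa4, 98 with Anxa2 and 113 with Anxa11, and genes on the same strand share 94 with Anxa9 and 112 with Anxa3. No source used here says whether counting used strand, so reads over these bases are uncertain.

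Anxa4 (chr6:86736840-86793584, minus strand), Anxa7 (chr14:20455260-20480133, minus strand) and Anxa11 (chr14:25842156-25886804, plus strand) were called less evenly. In C57 on day 8 all of them fell, by 1.30 (SE 0.21) for Anxa4, 0.91 (SE 0.163) for Anxa7 and 0.81 (SE 0.208) for Anxa11 on the log2 scale. In NZB on day 8 only Anxa11 of these passed, and it fell by 1.22 (SE 0.283, adjusted p = 0.0015), a call lost without non-lactating mouse 2 (−1.28, adjusted p = 0.05). Anxa7, known for calcium-driven membrane fusion, fell by 0.50 (SE 0.192, adjusted p = 0.043) on day 21 in C57 by limma. That call was lost without day 21 mouse 2 (−0.32) or non-lactating mouse 1 (−0.46) or 3 (−0.57), with size factors from medians of ratios (−0.33), and in a fit of the compared groups alone (adjusted p = 0.1).

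In deposited CPM most genes were lower in lactating glands, so the members' counts stand close to the background. In NZB, 9 members were lower and none higher on day 8, against 87.5% of all genes lower and 2.70% higher, and on day 14 9 were lower and 1 higher (86.2% and 3.16% of all genes). In C57, 9 were lower and none higher on day 8 (90.5% and 2.38%), 9 lower and 1 higher on day 14 (86.6% and 2.53%), and 9 lower and 1 higher on day 21 (85.5% and 2.23%). The median over all genes on day 8 was −1.80 in NZB and −1.81 in C57, and over the members −2.94 in NZB and −3.09 in C57. The member that was higher was Anxa8 each time. In each of those groups its call was lost without at least 1 mouse, and also with no filter on low values. Its NZB day 14 call was lost by limma voom (adjusted p = 0.1) and in a limma fit of the compared groups alone (adjusted p = 0.09) as well. The NZB day 14 difference of Anxa8 was 1.79, against 0.92 without day 14 mouse 3 and 2.03 without non-lactating mouse 2. Its C57 differences were 1.92 on day 14 (1.71 without non-lactating mouse 3) and 1.62 on day 21 (1.03 and 1.65 without day 21 mouse 1 and mouse 3, 1.57 and 1.41 without non-lactating mouse 1 and mouse 3).

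**Figure D2:**
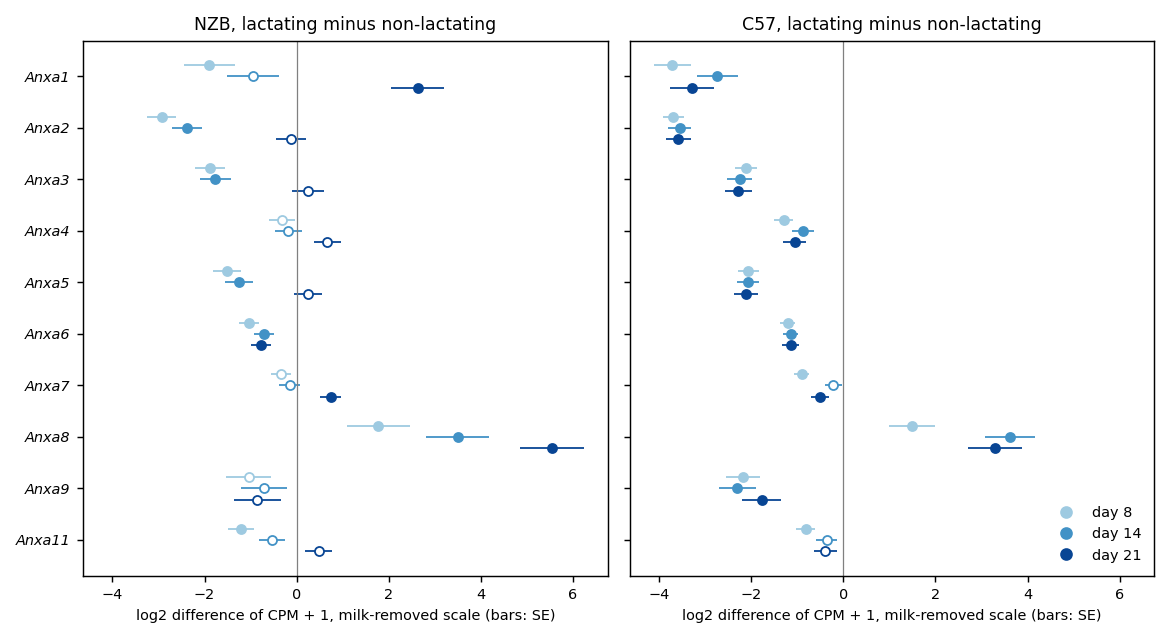
Log2 difference of each annexin between lactating and non-lactating glands on the milk-removed scale, NZB left and C57 right, with day 8 in light, day 14 in middle and day 21 in dark blue. Filled points passed the test at an adjusted p of 0.05, open points did not, and bars are the SE. C57 values stay on 1 side of 0 for each gene across the 3 days, while the dark NZB points of Anxa1, Anxa2, Anxa3 and Anxa5 lie to the right of their lighter ones.

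Markers of other cells moved with lactation. All 6 adipocyte markers were measured and none was at 0, and their summed level was 373 to 411 CPM in day 8 NZB glands, against 2950 to 8032 CPM in non-lactating NZB glands, and 314 to 423 CPM in day 8 C57 glands, against 4299 to 7220 CPM in non-lactating C57 glands. The 6 fibroblast markers, none at 0, summed to 417 to 592 CPM in day 8 NZB glands, against 1858 to 6838 CPM in non-lactating NZB glands, and to 468 to 669 CPM in day 8 C57 glands, against 3597 to 7081 CPM in non-lactating C57 glands. The 5 luminal secretory markers, none at 0, went the other way, with 1427 to 1522 CPM in day 8 NZB glands, against 71.1 to 163 CPM in non-lactating NZB glands, and 1145 to 1223 CPM in day 8 C57 glands, against 220 to 521 CPM in non-lactating C57 glands. The 5 epithelial markers summed to 354 to 477 CPM in day 8 NZB glands, against 32.1 to 285 CPM before lactation. In C57 they fell to 336 to 382 CPM, from 547 to 1156 CPM. The 5 hormone-sensing luminal markers summed to 792 to 831 CPM in day 8 NZB glands, against 193 to 1143 CPM before lactation. In C57 these fell to 671 to 747 CPM, from 1779 to 4894 CPM. Their part in the annexin differences was not tested. In whole glands fewer cells of a type and less RNA per cell cannot be told apart.

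Between days 14 and 21 most annexins rose in NZB glands. On the milk-removed scale the test called 8 of 10 members higher and none lower, where 21.3% of all genes were higher and 7.09% lower. The median difference was 1.25 over the members and 0.29 over all genes tested. With size factors from medians of ratios the table split into 1596 genes higher and 1886 lower, against 3445 and 1144 on the milk-removed scale, and every call but that of Anxa4 held. In deposited CPM all 10 members were higher, against 88.4% of all genes higher and 0.984% lower, and the median was 2.58 over the members and 1.36 over all genes.

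Anxa1 had the largest rise. It had 242, 298 and 453 CPM in day 21 NZB glands, against 16.2, 17.4 and 60.3 CPM in day 14 NZB glands. The lowest day 21 gland was above the highest day 14 gland, which was mouse 3, the day 14 NZB mouse with the smallest milk share (68.1%). The log2 difference was 3.58 (SE 0.431, adjusted p = 3.7e-06, limma).

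Anxa2 had 93.3, 86.6 and 97.2 CPM in day 21 NZB glands, against 14.1, 18.7 and 23.9 CPM in day 14 NZB glands. The day 21 glands lay close together and well clear of day 14. Anxa2 rose by 2.26 (SE 0.246, adjusted p = 9.1e-07) and Anxa3 by 2.02 (SE 0.258, adjusted p = 7.7e-06) on the log2 scale (limma). Anxa3 had 32.2, 38.8 and 36.7 CPM in day 21 NZB glands, against 7.70, 8.34 and 8.24 CPM in day 14 NZB glands. Its groups did not overlap either.

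Anxa5 had 113, 119 and 148 CPM in day 21 NZB glands, against 40.2, 42.0 and 51.8 CPM in day 14 NZB glands. It rose by 1.49 (SE 0.233, adjusted p = 8.7e-05, limma). Its groups did not overlap. Anxa7 had 62.3 to 95.8 CPM in day 21 NZB glands, against 38.5 to 50.5 CPM in day 14 NZB glands, Anxa11 had 46.1 to 75.5 CPM, against 22.3 to 38.9 CPM, and Anxa4 had 40.4 to 62.2 CPM, against 26 to 35.2 CPM. None of these groups overlapped. Anxa7 rose by 0.89 (SE 0.172), Anxa11 by 1.01 (SE 0.219) and Anxa4 by 0.85 (SE 0.222). The Anxa4 call was lost without day 21 mouse 2 (0.74, adjusted p = 0.072, limma) and with the other size factors (0.58, adjusted p = 0.059). Anxa8 rose by 2.04 (SE 0.525, adjusted p = 0.006), although day 14 mouse 3 at 120 CPM was above day 21 mouse 1 at 106 CPM. Its call was lost without day 14 mouse 2 (1.64, adjusted p = 0.055) or day 21 mouse 2 (1.87, adjusted p = 0.06, limma).

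Anxa6 and Anxa9 were the members that did not pass. Anxa6 had 203, 138 and 128 CPM in day 21 NZB glands, against 179, 146 and 157 CPM in day 14 NZB glands, groups that overlapped. Its log2 difference was −0.06 (SE 0.163, adjusted p = 0.8, limma), and the sign turned when only 8 milk protein genes were left out. Anxa9 had 1.69, 3.65 and 1.32 CPM in day 21 NZB glands, against 2.20, 3.17 and 1.91 CPM in day 14 NZB glands, with a difference of −0.14 (SE 0.38, adjusted p = 0.81, limma). In deposited CPM both passed, at 1.34 (SE 0.188, adjusted p = 9.7e-07) for Anxa6 and 0.63 (SE 0.278, adjusted p = 0.038, limma) for Anxa9, and the Anxa9 call was lost without day 14 mouse 1 or 3 (0.58 and 0.60) or day 21 mouse 2 (0.31).

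In C57 glands no member passed between those days. Anxa1 had 37.1, 10.5 and 9.60 CPM in day 21 C57 glands, against 28.8, 13.9 and 31.6 CPM in day 14 C57 glands. Anxa2 had 20.2, 12.6 and 20.1 CPM in day 21 C57 glands, against 17.1, 13.2 and 24 CPM in day 14 C57 glands. The groups overlapped for both, and 0 of the 10 members passed on either scale (limma, with 0 at an unadjusted p under 0.05 and 0 by limma voom), against 0% of all genes. The highest Anxa1 and Anxa8 levels among day 21 C57 glands were in mouse 1, whose milk share of 62.0% was the lowest of its group.

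The change between days 14 and 21 differed between genotypes for 5 members on the milk-removed scale. By the limma interaction term, NZB minus C57, the change was larger in NZB by 4.12 (SE 0.644, adjusted p = 0.00041) for Anxa1 and by 2.29 (SE 0.368, adjusted p = 0.00059) for Anxa2. It was larger by 2.05 (SE 0.385) for Anxa3, 1.52 (SE 0.349, adjusted p = 0.0098) for Anxa5 and 1.17 (SE 0.258, adjusted p = 0.0073) for Anxa7. Of all genes, 5.15% passed with a larger change in NZB and 2.68% with a smaller one, and no member passed with a smaller one. With 8 milk protein genes left out, 1745 genes had a larger and 373 a smaller change in NZB, and 8 members passed. The split with median-of-ratios size factors was 258 larger and 593 smaller, against 831 and 433 on the milk-removed scale. With those size factors 3 members passed, Anxa5 (1.24) and Anxa7 (0.89) being lost, and the Anxa7 call was lost without day 21 C57 mouse 2 (0.99, adjusted p = 0.062, limma). Without day 14 NZB mouse 3 or day 21 NZB mouse 1 the test called 8 members. In deposited CPM 9 members passed, against 74.2% of all genes with a larger change in NZB and 0.458% with a smaller one.

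**Figure D3:**
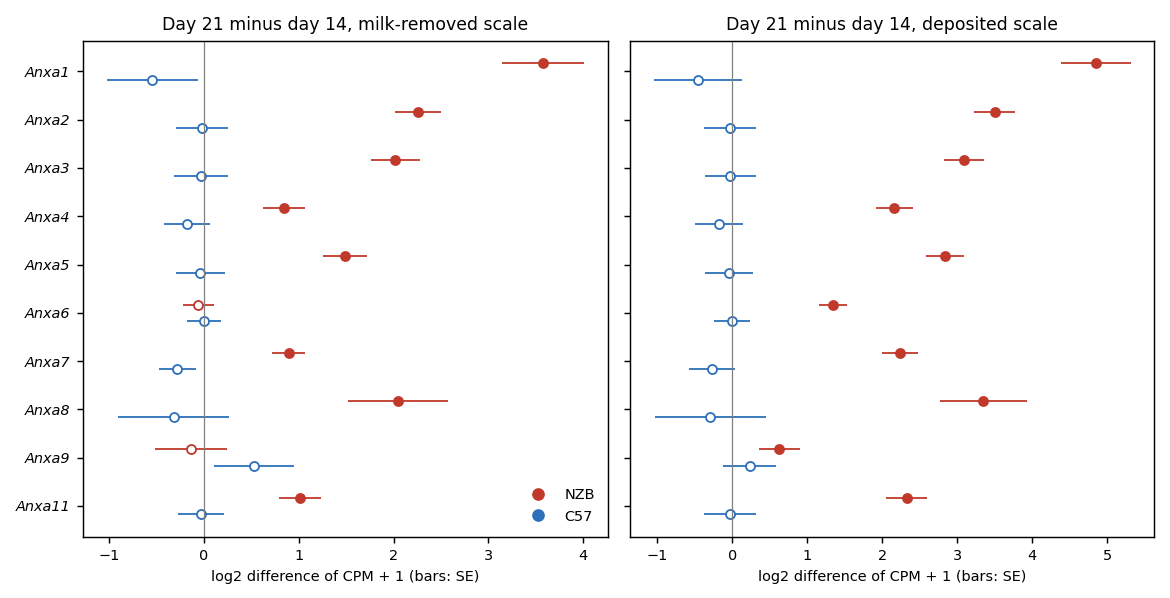
Log2 difference of each annexin between day 21 and day 14, NZB in red above C57 in blue, on the milk-removed scale (left) and the deposited scale (right). Filled points passed the test at an adjusted p of 0.05, open points did not, and bars are the SE. The red points run up to 3.58 for Anxa1 on the milk-removed scale and 4.85 on the deposited scale, and the blue points are all open.

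Against non-lactating glands, the day 21 NZB glands were set apart by 3 members that were higher and 1 that was lower on the milk-removed scale, where 13.1% of all genes were higher and 10.4% lower. Anxa1 rose by 2.63 (SE 0.569, adjusted p = 0.0017, limma), with 242 to 453 CPM in day 21 glands, against 25.2 to 74.5 CPM in non-lactating glands. Anxa7 rose by 0.74 (SE 0.228, adjusted p = 0.021) and Anxa6 fell by 0.77 (SE 0.216, adjusted p = 0.011). The Anxa7 call was lost without day 21 mouse 2 (0.70) or 3 (0.61) or non-lactating mouse 2 (0.79), and the Anxa6 call without day 21 mouse 2 (−0.70) or non-lactating mouse 1 (−0.68) or 2 (−0.77). Without day 21 mouse 2 or non-lactating mouse 2, and in a fit of these 2 groups alone, the test called 2 members, Anxa1 and Anxa8. The day 21 NZB levels of Anxa2 (86.6 to 97.2 CPM) and Anxa5 (113 to 148 CPM) lay within the non-lactating NZB ranges of 58.7 to 141 CPM for Anxa2 and 61.9 to 148 CPM for Anxa5.

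The same comparison in deposited CPM called 2 members higher (Anxa1 and Anxa8) and 2 lower (Anxa6 and Anxa9), against 7.08% of all genes higher and 21.2% lower. Without non-lactating NZB mouse 2 it called Anxa8 alone, and without day 21 mouse 3 it called 2 members. The other values without non-lactating mouse 2 were 2.50 for Anxa1, −1.16 for Anxa6 and −0.71 for Anxa9. Without day 21 mouse 3, Anxa1 was 1.99 and Anxa9 −0.90, and without day 21 mouse 1, Anxa9 was −0.97.

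Between genotypes, members passed on day 21 and at no earlier stage. NZB glands on day 21 had 242, 298 and 453 CPM of Anxa1, against 37.1, 10.5 and 9.60 CPM in C57 glands. The groups were far apart, with a log2 difference of 4.26 (SE 0.474, adjusted p = 1.4e-06, limma). Anxa2 was higher in NZB by 2.35 (SE 0.271, adjusted p = 2.3e-06), Anxa3 by 2.21 (SE 0.284) and Anxa5 by 1.87 (SE 0.257). Anxa11 was higher by 1.26 (SE 0.241), Anxa4 by 1.14 (SE 0.244) and Anxa7 by 1.0 (SE 0.19). In all, 8 of 10 members were higher and none lower on the milk-removed scale, where 18.9% of all genes were higher and 5.66% lower. With size factors from medians of ratios the split of all genes was 1447 higher and 1520 lower, against 3049 and 914. The median difference was 1.56 over the members and 0.31 over all genes tested.

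Anxa8 was higher by 2.12 (SE 0.578, adjusted p = 0.0097, limma) in day 21 NZB glands, with 106, 204 and 190 CPM, against 66.3, 17.8 and 38.8 CPM in day 21 C57 glands. The groups did not overlap, but the call was lost without day 21 C57 mouse 2 (1.64, adjusted p = 0.14) or day 21 NZB mouse 2 (1.95, adjusted p = 0.067, limma). Anxa6 had 203, 138 and 128 CPM in NZB, against 105, 145 and 148 CPM in C57, with a difference of 0.22 (SE 0.18, adjusted p = 0.38, limma) that turned to −0.06 with the other size factors. Anxa9 differed by 0.11 (SE 0.418, adjusted p = 0.87, limma), and by −0.07 with those factors. In deposited CPM 9 members were higher, against 82.9% of all genes higher and 0.854% lower.

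In non-lactating glands the count was 0 on both scales (limma, with 2 members at an unadjusted p under 0.05 on the milk-removed and 3 on the deposited scale, and 0 by limma voom), against 2.34% of all genes on the milk-removed and 3.91% on the deposited scale. The largest differences there were −1.64 (SE 0.574, adjusted p = 0.15) for Anxa1, with 25.2 to 74.5 CPM in NZB, against 132 to 182 CPM in C57 glands, and −1.09 (SE 0.328, adjusted p = 0.082, limma) for Anxa2, with 58.7 to 141 CPM in NZB, against 184 to 280 CPM in C57 glands. For neither gene did the groups overlap. Anxa2 passed without variance weights (adjusted p = 0.025), without non-lactating NZB mouse 1 (−1.33, adjusted p = 0.031) and with the other size factors (−1.21, adjusted p = 0.047, limma). Without mouse 1 the NZB group held only mice 2 and 3, which were rich in B cell markers. With each mouse left out in turn the Anxa2 difference ran from −1.33 to −0.71, and only the removal of mouse 1 gave a call. The 5 epithelial markers, none at 0, summed to 32.1 to 285 CPM in non-lactating NZB glands, against 547 to 1156 CPM in non-lactating C57 glands, and their part was not tested. On day 8 the count was 0 (limma, with 1 member at an unadjusted p under 0.05 on the milk-removed scale and 0 on the deposited scale, and 0 by limma voom), against 0.149% and 0.105% of all genes. On day 14 it was 0 (limma, with 0 at an unadjusted p under 0.05 and 0 by limma voom), against 0.0496% of all genes on the milk-removed and 0.0371% on the deposited scale. The genotype difference in the day 8 step on the deposited scale was also called for 0 members (limma, with 3 at an unadjusted p under 0.05 and 0 by limma voom), against 1.89% of all genes.

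The epithelial, macrophage and adipocyte marker sums were higher in every day 21 NZB gland than in any day 14 NZB gland. The sums of all other marker lists overlapped between these groups, among them hormone-sensing luminal, endothelial, B cell and T cell markers. Luminal secretory markers summed to 1299 to 2126 CPM on day 21, against 1215 to 1687 CPM on day 14. Myoepithelial and basal markers summed to 998.6 to 1571 CPM, against 1008 to 1183 CPM. The 5 epithelial markers, none at 0, summed to 1403 to 1831 CPM in day 21 NZB glands, against 498 to 1011 CPM in day 14 NZB glands and 505 to 739 CPM in day 21 C57 glands. The 6 macrophage markers, none at 0, summed to 250 to 443 CPM in day 21 NZB glands, against 116 to 146 CPM in day 14 NZB and 125 to 137 CPM in day 21 C57 glands. The 5 neutrophil markers, with S100a9 at 0 in all of these glands, summed to 39.4 to 49.1 CPM in day 21 NZB glands, against 33.6 to 42.2 CPM in day 14 NZB and 37.2 to 64.9 CPM in day 21 C57 glands. The 6 adipocyte markers, none at 0, summed to 949.7 to 2670 CPM in day 21 NZB glands, against 337 to 606 CPM in day 14 NZB glands, and the 6 fibroblast markers, none at 0, to 814 to 1928 CPM, against 621 to 816 CPM. The 5 skeletal muscle markers, none at 0, summed to 7.05, 248 and 899 CPM as the lowest, middle and highest of the day 21 NZB glands, against 4.23 to 10.3 CPM in day 14 NZB glands. Their part and that of the lower milk share in the annexin differences were not tested.

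Along all 24 glands the levels of Anxa8 correlated with those of genes beside it and of genes on other chromosomes. Among the genes searched, which left out symbols of the Gm, Rik, LOC and date-like kinds, Antxrl ranked first. On log2(CPM + 1), milk-removed scale, Pearson r was 0.98 and Spearman rho 0.97 with Antxrl, which resembles the anthrax toxin receptors, followed by Tyro3, a receptor tyrosine kinase of the family of Axl and Mertk (r 0.96), and Litaf (r 0.96). These genes were picked by rank among 14658, and the points share library, depth and milk content. Antxrl lies at chr14:34052707-34076405 on the same strand and ends 9575 bases before Anxa8 starts. A630023A22Rik, on the opposite strand at chr14:34051126-34102754, spans both, shares no exon base with Anxa8 and 338 with Antxrl, and was chosen after its values were seen. It was not among the genes searched, and its likeness to Anxa8 was higher than that of Antxrl (r 0.9832 and rho 0.9843, against r 0.9795 and rho 0.9713). Anxa1 was most like Osmr, Bhlhe41 and Tead1 (r 0.97, 0.96 and 0.96), and Anxa2 most like Tuba1a, Pmp22 and Abcc3 (r 0.97, 0.97 and 0.97).

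The 3 genes of the locus were highest in the same mouse in each day 14 and day 21 group. They were not in day 8 C57 glands, where Anxa8 was highest in mouse 3 (11.3 CPM). There Antxrl (3.49 CPM) and A630023A22Rik (3.74 CPM) were highest in mouse 1. In non-lactating glands the highest mouse of Anxa8 also differed from that of the other genes. Antxrl had 9.39, 9.68 and 55.9 CPM in the 3 day 14 NZB mice, and A630023A22Rik had 7.62, 8.51 and 26.5 CPM. Mouse 3 was the high one for both, as it was for Anxa8. In day 21 NZB glands Antxrl had 40.8, 77.2 and 62.6 CPM, against 31.4, 10.5 and 17.9 CPM in day 21 C57 glands. A630023A22Rik had 24.6, 41.3 and 40.6 CPM in day 21 NZB glands, against 15.4, 7.09 and 7.68 CPM in day 21 C57 glands. In non-lactating glands of either genotype Antxrl was at most 0.316 CPM and A630023A22Rik at most 0.518 CPM.

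**Figure D4:**
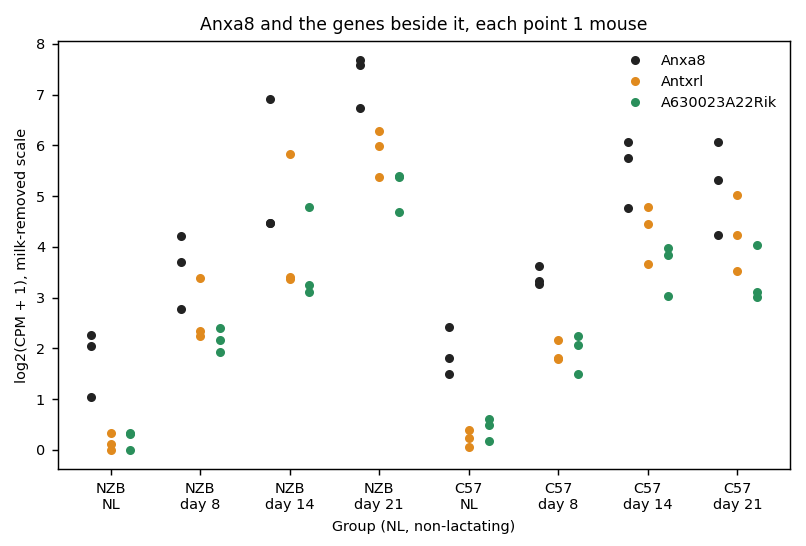
Level of Anxa8 (black), Antxrl (orange) and A630023A22Rik (green) as log2(CPM + 1) on the milk-removed scale, each point 1 mouse, for the 4 stages of NZB and then of C57. All 3 genes are lowest in non-lactating glands, and 1 day 14 NZB mouse stands above the other 2 for each of them.

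The annexins' partners and the genes that expose or recognise phosphatidylserine moved with them in part. Of the genes listed 16 passed the filter on low values, and Fpr1 and Fpr2 did not. Between days 14 and 21 in NZB 9 of the 16 rose and none fell, against 21.3% of all genes higher and 7.09% lower. S100a10, the partner of Anxa2, had 38.0 to 74.4 CPM in day 21 NZB glands, against 7.02 to 11.9 CPM in day 14 NZB glands, and rose by 2.30 (SE 0.274, adjusted p = 3.4e-06, limma). S100a11, the partner of Anxa1, had 90.0 to 133 CPM, against 14.4 to 41.0 CPM, and rose by 2.36 (SE 0.294). Neither pair of groups overlapped.

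Ahnak, a very large scaffold that binds the Anxa2 complex, rose by 2.25 (SE 0.329, adjusted p = 3.8e-05, limma). Gas6, the ligand that bridges phosphatidylserine to the receptors Axl and Mertk, had 102 to 152 CPM in day 21 NZB glands, against 24.5 to 41.2 CPM in day 14 NZB glands, and rose by 1.94 (SE 0.248). Pros1, which codes for another phosphatidylserine-binding ligand, rose by 1.51 (SE 0.256), Axl by 1.23 (SE 0.22) and Ano6, a calcium-activated lipid scramblase, by 1.62 (SE 0.198). Sri, a calcium-binding partner of Anxa7, rose by 0.97 (SE 0.167). Plat, which codes for the plasminogen activator, rose by 0.80 (SE 0.265, adjusted p = 0.027), a call lost without day 14 mouse 2 or 3 (0.80 each) or day 21 mouse 1 (0.56) or 2 (0.84). The Plat call was also lost with size factors from medians of ratios (0.56, adjusted p = 0.19, limma) and in a fit of the compared groups alone (adjusted p = 0.065, limma). Mertk, Dysf, S100a4, S100a6, Pla2g4a, Pdcd6 and Xkr8 did not pass.

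Set against C57 on day 21, 9 of the 16 partners were higher in NZB and none lower, where 18.9% of all genes were higher and 5.66% lower. By the interaction term 8 of the 16 passed with a larger change between days 14 and 21 in NZB and none with a smaller one, against 5.15% and 2.68% of all genes. The interaction count was 5 without day 21 C57 mouse 2 and 5 with size factors from medians of ratios. On day 8 against non-lactating glands 11 of 16 were lower and 1 higher in NZB (26.6% and 12.7% of all genes), and 13 were lower and none higher in C57 (36.4% and 14.9% of all genes). Without non-lactating NZB mouse 2 the NZB count was 7 lower and none higher. S100a4 exceeded 1 CPM only in non-lactating glands and passed the filter through them. A lower call for it within these counts is not independent of that filter. The formyl peptide receptor genes Fpr1 and Fpr2 reached at most 0.397 and 1.42 CPM in any gland.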

How the data were processed

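Inguinal glands were frozen and polyadenylated RNA was sequenced, per the labels' protocols. The submitters' processing notes name the builds GRCm38 and mm10. No source used here names the aligner or the counting tool. The authors deposited log10(CPM + 1) values, a scale read from the values themselves: undoing the log gives 1000000 CPM in each of the 48 columns. They were converted to log2(CPM + 1) for the test planned on log2 values. Whole reads were recovered in 100% of values within a tolerance of 0.05. The 2 columns of a mouse, named after its read files, were averaged in CPM. In non-lactating C57 mouse 2 they held 2.17 and 11.89 M reads (M, 1000000).

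Members and lists were chosen with earlier results of these data known. Tests used limma 3.58.1 (R 4.3.3) on log2(CPM + 1), in 1 fit of 24 samples and 8 group means with a variance weight per group, eBayes with a trend, 2-sided, Benjamini-Hochberg within each comparison, threshold 0.05. The filter kept genes that exceeded 1 deposited CPM in 3 or more samples, 16162 on the deposited and 16142 on the milk-removed scale, and the code was tested on simulated data. Fold changes on this scale understate changes of low genes. All 10 members were eligible to be named, as was any partner, and for the 3 widest-ranging members the 3 most alike genes. Whether mice share litters is not stated, so p-values measure the spread between these samples. The F numbers of the titles were not used to pair mice. Comparisons share groups (day 21 NZB glands enter several), so their results are not independent. Positions are from GENCODE release 21 for mouse, and figures used Python 3.11.15 with matplotlib 3.10.9. Alternatives were another pseudocount (0.1 CPM), no filter, no weights, the compared groups alone, the replicate block, each mouse left out, non-lactating NZB mice 2 and 3 left out, the first column alone, limma voom, 8 milk genes left out and median-of-ratios size factors.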

Additional observations from a re-analysis of the deposited data

Results flagged for a closer look

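The change between days 14 and 21 differed between NZB and C57 glands by the limma interaction term for 5 members on the milk-removed scale. On the log2 scale the NZB change was larger by 4.12 for Anxa1, 2.29 for Anxa2, 2.05 for Anxa3, 1.52 for Anxa5 and 1.17 for Anxa7.

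In deposited CPM it differed for 9 members. The NZB change was larger by 5.30 for Anxa1, 3.53 for Anxa2, 3.12 for Anxa3, 2.34 for Anxa4 and 2.88 for Anxa5. It was larger by 1.35 for Anxa6, 2.51 for Anxa7, 3.65 for Anxa8 and 2.35 for Anxa11. The milk share of reads, which sets the deposited scale, was 18.5 to 30.8% in day 21 NZB glands and 62.0 to 76.2% in day 21 C57 glands.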

How the results depend on the processing

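No member that passed, and no partner that passed between days 14 and 21 in NZB, changed sign under any alternative run. In the comparison of day 21 NZB with non-lactating NZB glands (4 members called on each scale), the compared groups alone called 2 on the milk-removed scale, no filter called 2 on the deposited scale, and leaving out 1 mouse called 2 to 5 on the milk-removed and 1 to 5 on the deposited scale. Leaving out 1 mouse called 4 to 8 members and 7 to 13 partners on day 8 and 3 to 6 members on day 14 against non-lactating glands in NZB. Between genotypes before lactation, Anxa2 was called without variance weights on both scales (1 member each) and with median-of-ratios size factors (1), and leaving out 1 mouse called 0 to 1. For the difference between genotypes in the day 21 minus day 14 change, leaving out only 8 milk genes called 8 members and size factors 3 members and 5 partners, and leaving out 1 mouse called 4 to 8 members and 5 to 8 partners.

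Values near 0 turned sign. Anxa6 in NZB on day 21 against day 14 was 0.10 with 8 milk genes left out and −0.27 to 0.066 with 1 mouse left out, and Anxa9 −0.44 to 0.061 with 1 mouse left out. Between genotypes on day 21, size factors gave −0.064 for Anxa6 and −0.075 for Anxa9, and leaving out 1 mouse gave −0.19 to 0.31 for Anxa9. The cause of these changes was not tested.

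No label used here says whether the F numbers pair mice. Correlations of same-numbered deviations ran from −0.40 to 0.48, which does not decide it. With the replicate block 3 calls were lost, Anxa8 on day 8 in NZB (1.77, adjusted p = 0.053, limma) and, on the deposited scale, Anxa9 on day 21 in NZB against non-lactating (−1.09) and day 14 glands (0.63, adjusted p = 0.056 for both). The first column alone, voom and a pseudocount of 0.1 CPM lost 1, 5 and 2 calls. Anxa9, with 1 to 116 reads a gland, and Anxa8 before lactation were limited by depth.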

Other observations

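Summed over the 10 members on the milk-removed scale, annexin transcripts in NZB glands made up 708 ± 137 CPM (SD, n = 3) before lactation, 294 ± 24 on day 8, 423 ± 109.7 on day 14 and 1109 ± 174 on day 21. In C57 glands they made up 1017 ± 144, 275 ± 7.01, 368 ± 22.6 and 343 ± 26.6 CPM at the same stages. The sum in day 21 NZB glands ranged from 940.4 to 1288 CPM and overlapped the range of non-lactating C57 glands, 894 to 1175 CPM, while the order of members per kilobase differed. In deposited CPM the sums were 832 ± 159.5 CPM in day 21 NZB and 101 ± 29.4 CPM in day 21 C57 glands.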
